A study of Mus musculus with 24 samples.

Results

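Interferon-stimulated genes were followed across cerebellum, liver and testes of mice that lack Thumpd1 (knockout, KO) and of wild-type (WT) mice. The 9 genes were chosen by symbol as Ifit1, Ifit3, Isg15, Irf7, Oasl2, Bst2, Usp18, Rsad2 and Ifi27, and each was found once among the 55450 genes of the expression table. Thumpd1 encodes the tRNA-binding partner that brings the acetyltransferase Nat10 to tRNA. KO animals carried deletions made with Cas9 and guide RNAs that cut in exons 1 and 4 in C57BL/6N eggs, and all mice were kept on a C57/BL6 background and no other allele or treatment is given for any group. Several founder lines were made, and which of them was sequenced was not given in the sources used here. Mice were 6 to 12 weeks old, the protocol allowed either sex, and controls were littermates of the same age unless stated otherwise. Each tissue had 4 WT libraries, numbered 1 to 4, and 4 KO libraries, numbered 5 to 8, or 24 in all, made from total RNA after removal of ribosomal RNA. The labels name these as replicates and say no more, so p-values measure the spread between these samples.

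Interferons are secreted proteins that warn cells of viral nucleic acid. Type I interferon binds Ifnar1 and Ifnar2, the kinases Jak1 and Tyk2 then activate transcription factors, and a complex that holds Stat2 and Irf9 binds an interferon-stimulated response element in the promoters of target genes. The targets include direct antiviral effectors, amplifiers such as Irf7 and brakes such as Usp18. Most are kept at a low basal level in healthy tissue, and Kupffer cells, microglia and other macrophages are among the cells that hold a basal interferon tone.

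The depth of the libraries set what could be seen for genes this low. Total counts ran from 16353797 to 37889615 per library, so that 3 counts, the limit that a count of 0 allows, correspond to between 0.0792 and 0.183 CPM (the usual depth-scaled count, counting error only). Hepatocyte markers summed to at least 47020 CPM in every liver library, cerebellar neuron markers to at least 3104 CPM in every cerebellum library and spermatid markers to at least 7999 CPM in every testes library, as the labels say. Thumpd1 had 0 to 2 counts in KO cerebellum, 0 to 4 in KO liver and 23 to 41 in KO testes, against 22.4 ± 1.06, 9.74 ± 0.401 and 25.2 ± 0.840 CPM in WT (SD, n = 4). The targeted gene thus matched the genotype label in every library. In liver 6 abundant noncoding RNAs took between 17.5% and 31.0% of a library's counts, most in WT replicate 4, and this replicate was the lowest of the 8 liver libraries for 5 of the 9 genes. In testes KO replicate 7, the deepest testes library, was the highest of 8 for 5 of the 9 genes.

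The genes sit in 7 chromosomes of the mouse genome (GRCm38, GENCODE M21). Ifit1 (19:34640871-34650009, plus strand) and Ifit3 (19:34583531-34588731, plus) lie in one cluster with Ifit3b, a near copy of Ifit3 at 19:34607970-34613401. The others are Isg15 (4:156199424-156200818, minus), Oasl2 (5:114896936-114912234, plus), Usp18 (6:121245906-121270917, plus), Irf7 (7:141262706-141266481, minus), Bst2 (8:71534255-71537456, minus), Rsad2 (12:26442746-26456452, minus) and Ifi27 (12:103434211-103440239, plus). All are protein-coding, with an exonic length from 756 bp for Isg15 to 6374 bp for Oasl2. Reads from 2 of them may be mixed with those of a neighbour, since exons of Irf7 overlap Phrf1 by 45 bp and those of Usp18 overlap Gm44148 by 124 bp on the other strand, and the strand setting of the counting was not given in the sources used here. Ifit3 and Ifit3b split shared reads, and Ifit3 received 53.7% to 60.2% of their joint count in cerebellum and 60.6% to 81.4% in liver.

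A RefSeq promoter window (GRCm38.p6, 250 bases before to 50 after the start site) was at hand for 7 of the 9 genes, without Usp18 and Ifi27. The core of the interferon-stimulated response element was searched as GAAA, any 2 bases, GAAA on both strands, so that it reads TTTC, any 2 bases, TTTC on the other. It was found in 5 of the 7 windows and at least 2 times in 4 of them. Over all 32851 windows 3.44% held it and 0.225% held 2 or more, and among the other interferon pathway genes described further on it was found in 53 of 133 genes with a window (39.8%, against 3.99% of all 27025 genes). Isg15 is shown because it held the most copies, 3 that overlap each other by 4 bases at positions -78, -72 and -66 from the start site. Ifit1 and Ifit3 are shown because the pair share the same order of copies, at -104 and -85 in Ifit1 and at -156 and -122 in Ifit3. Oasl2 is shown because it is the gene that passed the KO test in testes, and its window held none, which says only that these letters are absent there. Capitals mark the matches.
Isg15 (chr4:156200769-156201068, minus strand): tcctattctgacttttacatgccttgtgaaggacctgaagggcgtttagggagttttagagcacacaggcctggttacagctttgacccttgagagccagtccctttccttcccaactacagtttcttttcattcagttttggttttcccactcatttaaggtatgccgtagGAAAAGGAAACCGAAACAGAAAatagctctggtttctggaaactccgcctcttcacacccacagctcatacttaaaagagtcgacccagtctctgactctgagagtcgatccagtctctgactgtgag
Ifit1 (chr19:34640639-34640938, plus strand): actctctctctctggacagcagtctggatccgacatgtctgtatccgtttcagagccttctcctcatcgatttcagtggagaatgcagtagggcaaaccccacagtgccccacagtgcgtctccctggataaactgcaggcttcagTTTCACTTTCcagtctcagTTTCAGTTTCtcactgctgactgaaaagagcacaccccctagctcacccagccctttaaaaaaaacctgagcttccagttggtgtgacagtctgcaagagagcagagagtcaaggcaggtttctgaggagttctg
Ifit3 (chr19:34583279-34583578, plus strand): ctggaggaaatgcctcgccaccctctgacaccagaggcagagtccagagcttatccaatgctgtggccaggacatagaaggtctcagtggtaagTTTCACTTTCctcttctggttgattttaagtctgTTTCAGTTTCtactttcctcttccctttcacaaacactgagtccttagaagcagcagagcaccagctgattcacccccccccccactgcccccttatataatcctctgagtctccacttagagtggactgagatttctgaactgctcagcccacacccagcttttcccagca
Oasl2 (chr5:114896684-114896983, plus strand): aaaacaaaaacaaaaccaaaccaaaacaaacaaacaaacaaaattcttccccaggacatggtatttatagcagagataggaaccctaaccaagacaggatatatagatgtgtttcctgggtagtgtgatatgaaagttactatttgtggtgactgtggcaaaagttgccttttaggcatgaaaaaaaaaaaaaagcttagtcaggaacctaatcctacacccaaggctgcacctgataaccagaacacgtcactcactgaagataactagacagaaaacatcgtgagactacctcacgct
Bst2 held 2 overlapping copies at -130 and -124, Rsad2 held 1 at -120 and Irf7 held none. A match describes the letters and was not tested as a binding site.

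The basal levels differed between the genes of a tissue and between tissues. Within the WT liver, set per kb of exon so that genes can be compared, Bst2 stood highest with 50.8 ± 7.36 CPM per kb (SD, n = 4), and Ifi27 followed with 23.5 ± 5.60, Irf7 with 6.33 ± 0.843 and Isg15 with 4.39 ± 0.797. Ifit3 (2.40 ± 0.449), Usp18 (1.33 ± 0.307), Ifit1 (1.22 ± 0.303) and Rsad2 (1.20 ± 0.169) came next, of which the last 3 overlapped, and Oasl2 was lowest at 0.431 ± 0.0746 CPM per kb. In WT cerebellum the order per kb began with Ifi27 (5.55 ± 1.56) and Ifit3 (2.91 ± 0.427), and the other 7 genes lay between 0.276 and 0.800 on average. In WT testes Ifi27 was again first (5.43 ± 0.284), then Bst2 (1.56 ± 0.423) and Oasl2 (0.860 ± 0.137), while Ifit1 (0.0920 ± 0.0350) and Rsad2 (0.0893 ± 0.0483) shared the last place within their spread.

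**Figure D1:**
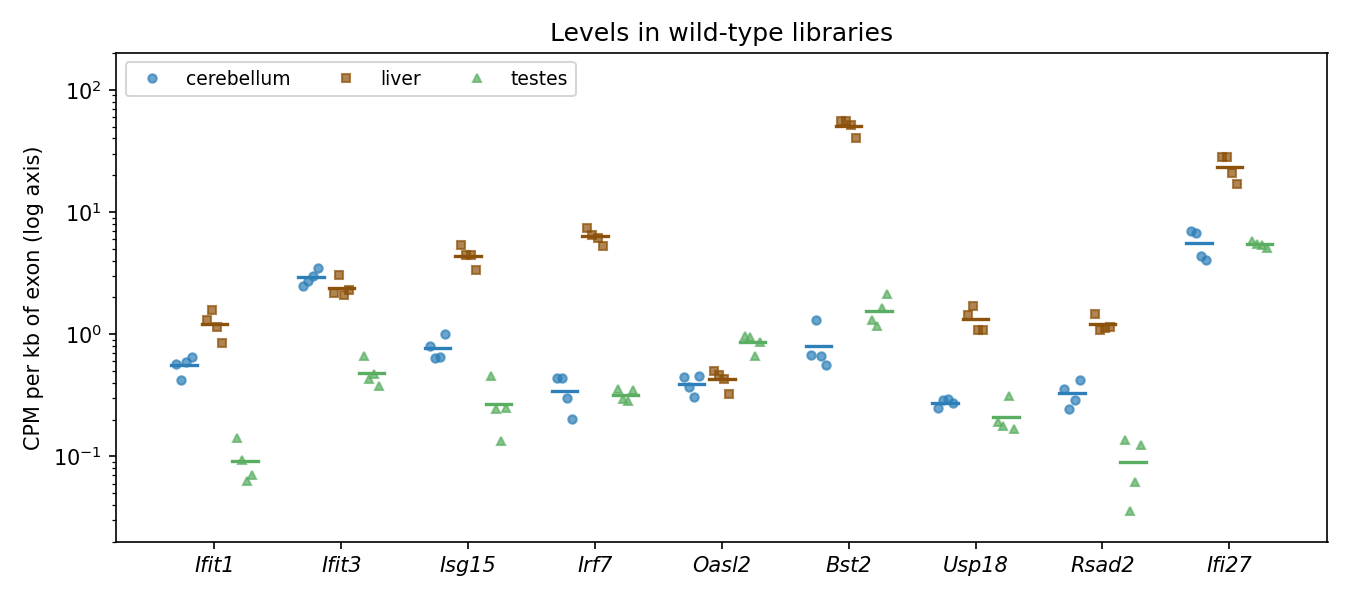
Levels of the 9 interferon-stimulated genes in the 4 wild-type libraries of each tissue, in CPM per kb of exon on a log axis, with bars at the means. Bst2 and Ifi27 in liver stand highest, at 50.8 and 23.5, and Oasl2 has its highest CPM level in testes, an order that turns against liver when libraries are quantile normalized together.

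Liver held more of most of these genes than cerebellum. Bst2, a membrane protein that tethers budding virions, had 45.8 ± 6.65 CPM in WT liver against 0.722 ± 0.304 in WT cerebellum (SD, n = 4), and Irf7, the transcription factor that amplifies interferon production, had 23.9 ± 3.18 against 1.30 ± 0.432 CPM. The tissues were tested with all 24 libraries in one limma-voom fit with TMM factors, read only for genes that reached 1 CPM in at least 4 of the 8 libraries of both tissues, since a gene that enters through one tissue alone has to differ. All 6 genes that could be read were called higher in WT liver, at log2 differences from 0.92 ± 0.150 (SE) for Ifit3 to 5.41 ± 0.239 for Irf7, where "called" means a Benjamini-Hochberg adjusted p under 0.05. Of the 11489 genes read 49.9% were called higher and 38.7% lower. Isg15, Bst2 and Usp18 were under this filter in cerebellum and have no test here, and in mean CPM they were 5.66, 63.5 and 4.81 times as high in liver. The cerebellum mean of Bst2 holds a high library, replicate 2 at 1.17 CPM, with the others at 0.510 to 0.606. The TMM factors raised liver against cerebellum by 1.20 on the log2 scale over plain CPM, so that in CPM Ifit3 was lower in liver (4.19 ± 0.783 against 5.09 ± 0.745) and Oasl2 nearly level (2.75 ± 0.476 against 2.52 ± 0.450), while Ifit1, Irf7, Rsad2 and Ifi27 were higher in liver by TMM, in CPM and after joint quantile normalization.

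In mean CPM testes held less than liver of all but Oasl2. Of 4 genes read in the same fit 3 were called lower in WT testes, Ifi27 by -3.02 ± 0.163 (SE, log2), Irf7 by -5.22 ± 0.220 and Bst2 by -5.98 ± 0.237, beside a background of 51.8% lower and 38.1% higher calls. Oasl2, a homologue of the 2′-5′ oligoadenylate synthetases with ubiquitin-like domains, was not called by TMM (0.054 ± 0.165, 95% interval -0.29 to 0.40, adjusted p = 0.758), was higher in testes in CPM (5.48 ± 0.874 against 2.75 ± 0.476, SD, n = 4) and was called lower, at -1.16, when the 24 libraries were quantile normalized together (limma adjusted p = 3.43e-07). The fit over genes present in all 3 tissues, added after seeing the data, called it higher in testes by 0.34 (adjusted p = 0.0241).

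Ifit1, Ifit3, Isg15, Usp18 and Rsad2 were under the filter in testes and have no test there. In WT testes they lay at 0.244 ± 0.0929, 0.846 ± 0.217, 0.204 ± 0.101, 0.592 ± 0.187 and 0.387 ± 0.210 CPM (SD, n = 4), against 3.25, 4.19, 3.32, 3.71 and 5.21 CPM on average in WT liver and 1.49, 5.09, 0.587, 0.771 and 1.42 CPM in WT cerebellum. The testes mean of Usp18 holds replicate 3 at 0.869 CPM, with the others at 0.471 to 0.530.

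Between WT testes and WT cerebellum 3 genes could be read, where 45.9% of the 13753 genes were lower and 41.3% higher in testes. Oasl2 was called higher in testes (1.38 ± 0.186 log2, SE), and it was also higher there in CPM and after joint quantile normalization. Irf7 and Ifi27 gave adjusted p of 0.562 and 0.289 by TMM, and their sign turned in CPM. With joint quantile normalization Irf7 was called lower in testes (-2.55, limma adjusted p = 4.48e-08) and Ifi27 was not called (-0.16). In bulk tissue, fewer cells of a type and less RNA per cell cannot be told apart.

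The first comparison between genotypes was made in testes, where 1 of the 9 genes rose. Oasl2 had 6.17, 6.02, 4.25 and 5.50 CPM in WT replicates 1 to 4 and 7.39, 7.11, 9.97 and 8.82 CPM in KO replicates 5 to 8. All 4 KO libraries lay above all 4 WT libraries, and KO replicate 7 was the highest. The means were 5.48 ± 0.874 and 8.32 ± 1.33 CPM (SD, n = 4), and the fit of the 8 testes libraries gave a log2 change of 0.50 ± 0.133 (SE), a 1.42-fold increase with a 95% interval of 1.16 to 1.73 and a limma adjusted p of 0.0231. One fit of all 24 libraries, which quantile normalizes the 3 tissues together, gave a larger log2 change of 1.03. Calls were common in this tissue, since 9.74% of the 19329 genes tested were called higher and 10.7% lower in KO, and in 18.8% of genes all KO libraries exceeded all WT libraries (9.8% the other way). The adjusted p was 0.0176 with edgeR and 0.00263 with DESeq2. With single libraries left out the adjusted p ran from 0.0178 to 0.0728, and the call was lost without WT replicate 3 (0.40, adjusted p = 0.0728), WT replicate 4 (0.51, 0.0616), KO replicate 7 (0.42, 0.0595) or KO replicate 8 (0.47, 0.0513).

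Cell type markers moved in the same libraries. Of 10 Sertoli cell markers 9 were called higher in KO testes, and their summed level was 1232 to 1781 CPM in KO against 960 to 1135 in WT, while 4 of 8 spermatid markers were called lower (7999 to 10254 CPM against 11006 to 11590). Macrophage markers summed to 254 to 276 CPM in KO and 276 to 291 in WT, with 2 of 13 tested called higher and 1 lower. Markers of T, B, NK and plasmacytoid dendritic cells summed to 6.58 to 8.19 CPM in KO and 8.23 to 9.28 in WT. The part of these shifts in the Oasl2 result was not tested.

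Of the other 8 genes, 3 passed the filter of at least 1 CPM in at least 4 of the 8 testes libraries, and none of the 3 was called. Irf7 had 1.34, 1.12, 1.07 and 1.32 CPM in WT and 1.31, 0.770, 1.53 and 1.25 in KO, which overlap, with a log2 change of -0.15 ± 0.221 (SE, 95% interval -0.63 to 0.34). Bst2 had 1.18, 1.06, 1.47 and 1.92 CPM in WT and 1.73, 1.76, 1.69 and 1.90 in KO, and the KO libraries fell inside the upper end of the WT range (0.25 ± 0.192, interval -0.17 to 0.67). That change was 0.13 without WT replicate 2, 0.15 without WT replicate 1 and 0.42 without WT replicate 4. Ifi27, a small membrane protein linked to mitochondria and the nuclear envelope, had 7.45 to 8.44 CPM in WT and 7.22 to 9.72 in KO and gave the narrowest interval, -0.24 to 0.19 around -0.028. Ifit1, Ifit3, Isg15, Usp18 and Rsad2 stayed under the filter, with group means from 0.118 CPM for Isg15 in KO to 0.846 CPM for Ifit3 in WT. Isg15 had 3 to 11 counts in a WT and 1 to 5 in a KO library, and with no filter its log2 change was -0.93 with a 95% interval of -2.01 to 0.16 (limma adjusted p = 0.312).

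**Figure D2:**
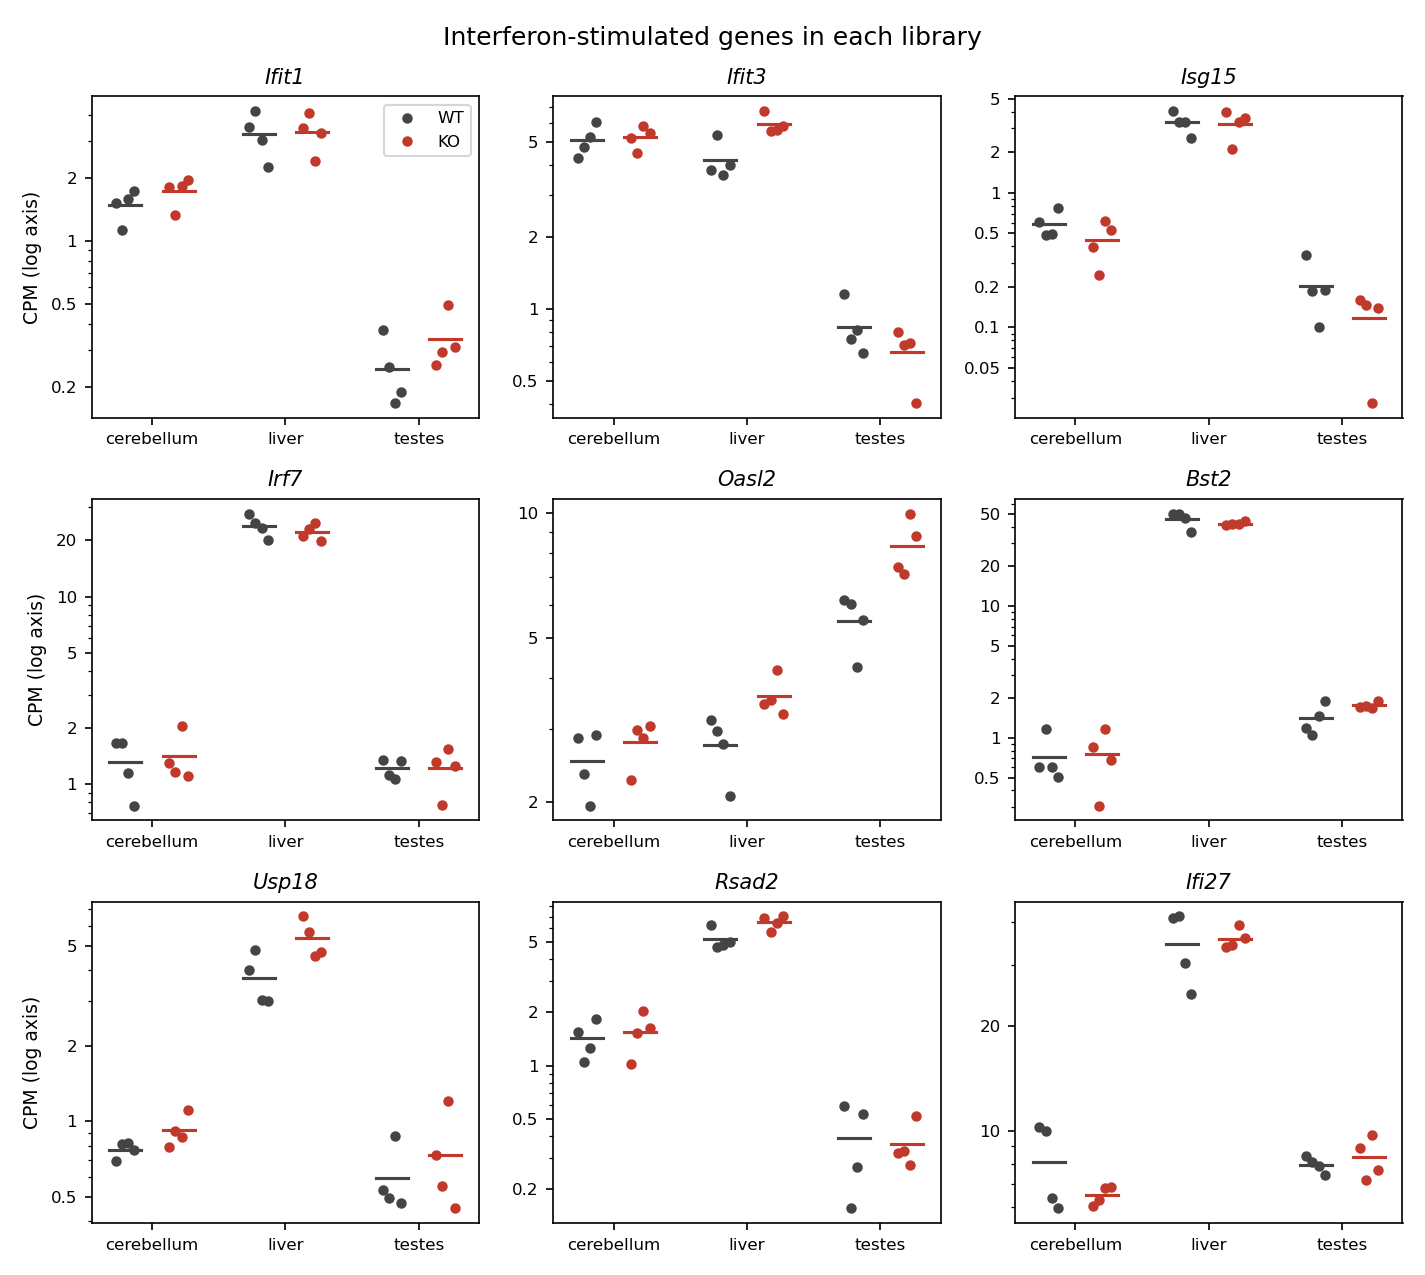
CPM of each gene in each library on log axes, with WT in grey, KO in red and bars at the group means of 4 libraries. Oasl2 in testes and Ifit3 and Oasl2 in liver are the cases in which all KO points lie above all WT points, and in the other panels the genotypes overlap.

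In liver all 9 genes were tested and none was called, although 4 had an unadjusted limma p under 0.05, all of them with higher values in KO. Of the 12816 genes tested 2.79% were called higher and 3.12% lower, and 23.3% had an unadjusted p under 0.05. The 4 were Ifit3, Oasl2, Usp18 and Rsad2. The count of called genes was 0 with edgeR, 2 with DESeq2 (Ifit3 and Usp18) and 4 in one fit of all 24 libraries. Over all genes the calls also grew, from 757 with limma and 807 with edgeR to 1408 with DESeq2 and 3061 in the fit of 24 libraries.

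Ifit3, of the same tetratricopeptide repeat family as Ifit1, had 3.82, 5.35, 3.62 and 3.99 CPM in WT liver and 6.73, 5.54, 5.61 and 5.81 in KO. All KO libraries were above all WT libraries, with WT replicate 2 close below. The log2 change was 0.45 ± 0.142 (SE, 95% interval 0.14 to 0.76) with a limma adjusted p of 0.0880, against 0.0675 with edgeR and 0.0245 with DESeq2. Counted together with Ifit3b, an alternative chosen after seeing the data, the change was 0.50 with an adjusted p of 0.0698, and the joint level was 4.67 to 7.09 CPM in WT and 7.10 to 9.15 in KO.

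Oasl2 had 3.16, 2.98, 2.77 and 2.07 CPM in WT liver and 3.46, 3.53, 4.17 and 3.27 in KO. The groups did not overlap here either, WT replicate 1 lying just under KO replicate 8, and WT replicate 4 was the lowest. The log2 change was 0.35 ± 0.150 (SE, interval 0.025 to 0.68, adjusted p = 0.186). Such separation of the groups was seen upward in 7.34% and downward in 5.31% of all genes tested in liver, and in 2 of the 9 here, both upward. When the 6 abundant noncoding RNAs were taken out of the totals, a scale added after the data were seen, Ifit3 lay at 4.63 to 6.60 CPM in WT and 6.91 to 9.24 in KO and Oasl2 at 3.00 to 3.83 and 3.97 to 5.14, so both remained separate, and Rsad2 also became separate, at 5.80 to 7.63 and 7.78 to 9.42. The share of all genes that separate on that scale was not computed, so these separations have no background beside them.

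Usp18, the protease that removes Isg15 from proteins and blocks signalling at Ifnar2, had 4.00, 4.79, 3.05 and 3.00 CPM in WT liver and 6.56, 5.68, 4.54 and 4.73 in KO. KO replicates 5 and 6 exceeded every WT library and the other two did not. Its log2 change was 0.44 ± 0.179 (SE, interval 0.042 to 0.83, limma adjusted p = 0.175, DESeq2 adjusted p = 0.0489). With sample quality weights that change was 0.27 (limma adjusted p = 0.293). Rsad2, or viperin, which makes a chain-terminating nucleotide, had 6.29, 4.69, 4.85 and 5.00 CPM in WT and 6.86, 5.73, 6.47 and 7.04 in KO, 3 of the 4 KO libraries above every WT library (0.30 ± 0.117, interval 0.040 to 0.55, adjusted p = 0.158). Without any one library the log2 change of these 4 genes stayed between 0.24 and 0.56, and their adjusted p stayed above the threshold.

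The remaining 5 genes of the liver gave log2 changes from -0.099 to 0.11. Isg15, the ubiquitin-like modifier itself, had 4.03, 3.33, 3.36 and 2.56 CPM in WT and 3.96, 2.09, 3.35 and 3.60 in KO (-0.081 ± 0.188, interval -0.50 to 0.33). Irf7 had 27.7, 24.7, 23.2 and 20.0 CPM in WT and 21.1, 22.98, 24.7 and 19.9 in KO (-0.090 ± 0.0879, interval -0.28 to 0.10). Both overlapped throughout, and the change of Irf7 was -0.019 without KO replicate 8, -0.046 without WT replicate 1 and -0.14 without KO replicate 7. Bst2 lay at 36.2 to 50.3 CPM in WT and 40.9 to 44.2 in KO, with an interval of -0.24 to 0.085 around -0.076, and its change was -0.14 without WT replicate 4 and -0.048 without WT replicate 2. Ifit1, which holds back translation of RNA that lacks the cap methylation of the host, lay at 2.26 to 4.18 and 2.42 to 4.08 CPM, and its change of -0.099 ± 0.208 turned to 0.026 with edgeR and 0.030 with DESeq2. The change of Ifit1 was -0.26 with sample quality weights and -0.20 in one fit of all 24 libraries. Ifi27 lay at 24.8 to 41.6 and 33.8 to 39.1 CPM (0.11 ± 0.114), with a change of 0.015 without WT replicate 4 and 0.19 without WT replicate 2. Macrophage and Kupffer cell markers summed to 321 to 404 CPM in WT and 372 to 419 in KO liver, with 1 of 15 tested called (Mrc1, higher by limma, not by edgeR). DESeq2 also called 1 gene of that list higher. Markers of T, B, NK and plasmacytoid dendritic cells, a list taken without Bst2, were low but separated in liver, at 5.59 to 6.31 CPM summed in WT and 8.76 to 11.1 in KO, with none of the 15 at 0 in all libraries of a group. Of the 4 tested 3 had an unadjusted p under 0.05, their median log2 change was 0.55, and Cd4 was called higher by limma, edgeR and DESeq2. The part of either list in the liver values was not tested.

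In cerebellum 6 of the 9 genes passed the filter, none was called and none had an unadjusted limma p under 0.05, while edgeR and DESeq2 also called none. Among all 16225 genes 24.2% had such a p, 3.93% were called higher and 2.51% lower, and the groups separated upward in 8.79% and downward in 4.99%. None of the 6 separated. Ifi27 had the lowest p of the 6 (limma, 0.0672 before adjustment), with 10.3, 9.95, 6.37 and 5.97 CPM in WT and 6.05, 6.30, 6.85 and 6.90 in KO. WT replicates 1 and 2 stood above the other 6 libraries, which lay between 5.97 and 6.90 CPM. The log2 change was -0.34 ± 0.170 (SE, interval -0.71 to 0.028, adjusted p = 0.242), and it was -0.22 without WT replicate 1, -0.23 without WT replicate 2 and -0.46 without WT replicate 4.

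None of the 4 effectors tested in cerebellum was called, and their intervals reached up to 0.63. Ifit1 had 1.52, 1.13, 1.58 and 1.73 CPM in WT and 1.81, 1.34, 1.83 and 1.95 in KO, with 3 of the 4 KO libraries above every WT library and a log2 change of 0.18 ± 0.202 (SE, interval -0.26 to 0.61), which was 0.026 without WT replicate 2 and 0.31 without KO replicate 6. Ifit3 lay at 4.29 to 6.04 CPM in WT and 4.48 to 5.81 in KO (0.035 ± 0.137, interval -0.26 to 0.33). Oasl2 lay at 1.96 to 2.91 and 2.26 to 3.05 CPM (0.10 ± 0.167, interval -0.26 to 0.46, with 0.014 without WT replicate 3 and 0.22 without KO replicate 5), and Rsad2 at 1.05 to 1.84 and 1.02 to 2.04 CPM (0.088 ± 0.250, interval -0.45 to 0.63). Irf7 lay at 0.765 to 1.66 and 1.11 to 2.04 CPM (0.034 ± 0.269, interval -0.55 to 0.62), the widest interval of the 6, from 15 to 41 counts per library. Isg15, Bst2 and Usp18 stayed under the filter, with group means between 0.445 and 0.921 CPM. Forebrain and midbrain neuron markers were higher in KO (208.7 to 242 CPM summed, against 143 to 157 in WT, 5 of 10 tested called). This list, like the others, was chosen with earlier results of these data known, so its rise is no independent sign of a cell type shift. Macrophage and microglia markers summed to 103 to 109 against 87.2 to 102 CPM with 0 of 14 called by limma. Choroid plexus markers varied widely within groups (22.7 to 368 CPM summed in KO, 18.1 to 1099 in WT, 0 of 8 called). Endothelial markers summed to 204 to 224 against 193 to 199 CPM, with 0 of 9 called by limma. The part of these lists was not tested.

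**Figure D3:**
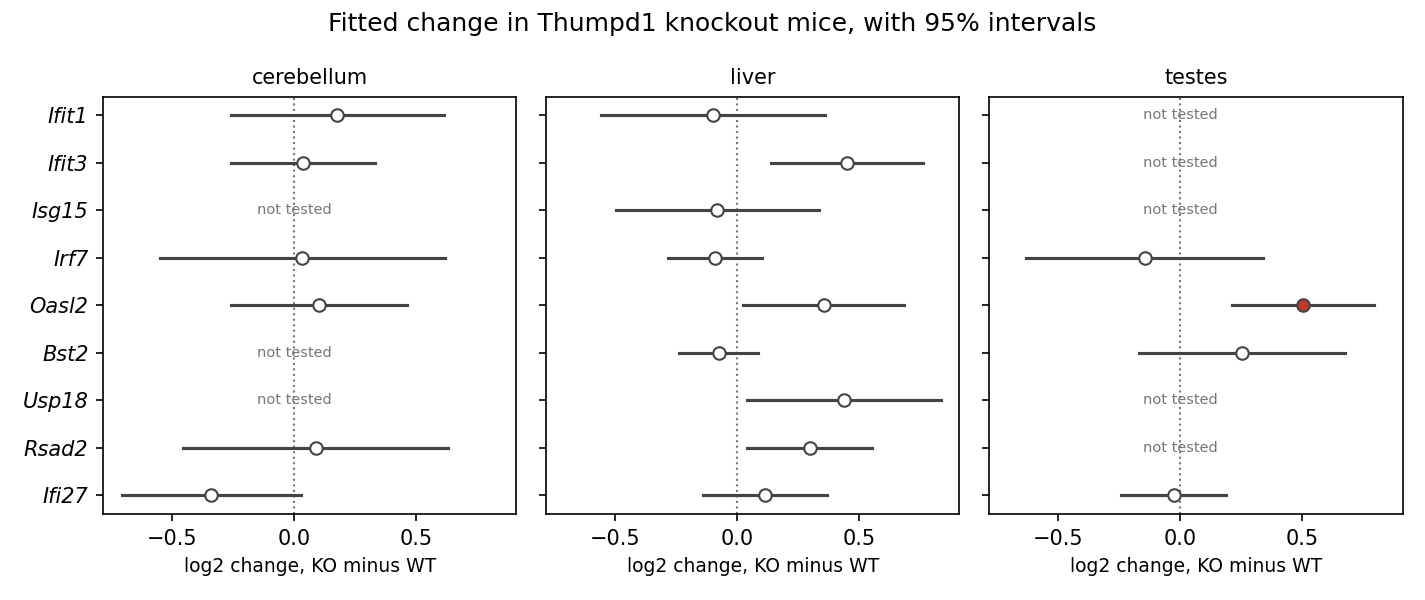
Fitted log2 change (KO minus WT) with its 95% interval for each gene that passed the filter in a tissue, filled where the adjusted p is under 0.05. Oasl2 in testes is the filled point at 0.50, and 4 liver intervals (Ifit3, Oasl2, Usp18, Rsad2) exclude 0 before adjustment.

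The fitted changes of the members tested lay on both sides of 0 in each tissue. Their median log2 change was 0.061 over the 6 tested in cerebellum, 0.11 over the 9 in liver and 0.11 over the 4 in testes, beside -0.0059, -0.0031 and 9.72e-05 over all genes. The median absolute change was 0.095, 0.11 and 0.20 for these genes and 0.095, 0.14 and 0.18 for all genes tested. Their summed CPM was 19.4 to 24.05 in WT and 19.3 to 24.1 in KO cerebellum, 99.9 to 144 and 126 to 133 in liver, and 16.9 to 20.1 and 18.9 to 25.6 in testes. The sums overlapped between genotypes in each tissue. In WT liver Bst2, Ifi27 and Irf7 (45.8, 34.5 and 23.9 CPM) made up most of the mean sum of 127 CPM, so the sum says little of Ifit3, Oasl2, Usp18 and Rsad2, whose mean CPM in KO was 1.25 to 1.45 times that in WT.

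Whether the KO effect differed between tissues was tested as a difference of differences over the 24 libraries, read only for genes that passed the filter in both tissues. This left 6 genes for liver against cerebellum, 3 for testes against cerebellum and 4 for testes against liver, and Isg15 and Usp18 in no comparison. None of those read passed by limma, none had an unadjusted p under 0.05, and edgeR called none. The difference closest to the threshold was that of Ifit3, whose KO effect was 0.43 ± 0.211 (SE, log2) larger in liver than in cerebellum (interval -0.011 to 0.87, adjusted p = 0.329), where 3.29% of genes differed. For Oasl2 the effect in testes exceeded that in cerebellum by 0.41 ± 0.259 (interval -0.12 to 0.95, adjusted p = 0.385, background 8.36%) and that in liver by 0.17 ± 0.223 (interval -0.29 to 0.63, adjusted p = 0.683, background 9.9%). The call of Oasl2 in testes is therefore not shown to be particular to testes.

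The other genes of the pathway give the surroundings of these values. Lists of ligands, receptors and kinases, transcription factors, nucleic acid sensors, antiviral effectors, Isg15 conjugation, interferon gamma-type GTPases with antigen presentation, and negative regulators held 165 further genes of the table. None of the 21 interferon ligands reached the filter in any tissue. In cerebellum 2 of 101 tested genes were called higher and 1 lower, in liver 4 of 128 higher and 5 lower, and in testes 7 of 105 higher and 4 lower. The cerebellum shares were 1.98% higher and 0.99% lower, against 3.93% and 2.51% of all genes. For liver they were 3.12% and 3.91% against 2.79% and 3.12%, and for testes 6.67% and 3.81% against 9.74% and 10.7%. In cerebellum edgeR called 4 and DESeq2 5 of these genes higher, where calls over all genes went from 1045 to 1060 and 1329. The median log2 changes of the pathway genes were 0.041, 0.035 and 0.080. Stat2 and Irf9, which carry the signal to the promoters, were called in none of the tissues, with log2 changes from -0.10 (Irf9 in cerebellum) to 0.22 (Irf9 in testes).

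In cerebellum Ifi203, a member of the HIN-200 family of nuclear DNA-binding proteins, was higher in KO, with 11.4 ± 1.82 CPM against 4.14 ± 0.464 in WT (SD, n = 4), and its log2 change was 1.45 ± 0.146 (SE, adjusted p = 0.000306). It belongs to a family of close copies and overlaps Mndal by 37 bp, so that its reads may be split. Irgm1, an interferon-inducible GTPase, rose by 0.47 ± 0.0919 on the log2 scale (4.80 ± 0.158 to 6.79 ± 0.262 CPM, adjusted p = 0.0116). Samhd1, which breaks down deoxynucleotides, fell by 0.22 (29.3 ± 0.525 to 25.4 ± 1.40 CPM, adjusted p = 0.0303). Neuron markers moved in the same libraries. Besides the forebrain and midbrain markers, of 7 cerebellar neuron markers Gabra6 and Neurod1 were called lower and Pcp2 higher by limma (3104 to 3454 CPM summed in KO, 3311 to 3528 in WT). Of 3 red blood cell markers tested Alas2 was called lower by limma, not by edgeR or DESeq2 (3.74 to 7.01 CPM summed in KO, 7.76 to 8.67 in WT). The part of these markers was not tested.

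In liver the GTPase Iigp1 rose from 88.0 ± 6.65 to 147 ± 11.3 CPM (0.78 ± 0.0768 log2, adjusted p = 0.000443) and the nonclassical class I gene H2-T23 from 144 ± 4.28 to 192 ± 7.20 CPM (0.44 ± 0.0511, adjusted p = 0.00147). Irf5, a transcription factor of the Toll-like receptor response, rose by 0.46 ± 0.0901 (14.8 ± 0.893 to 20.0 ± 2.85 CPM, adjusted p = 0.0152), though its exons overlap Tnpo3 by 411 bp on the other strand. Ifi47 was the fourth gene called higher. Mavs, the mitochondrial adaptor of the RNA sensors, fell by 0.35 (103 ± 14.6 to 78.6 ± 7.43 CPM, adjusted p = 0.0172) and Oasl1, a relative of Oasl2 known to restrain Irf7 translation, fell by 0.52 (12.8 ± 2.03 to 8.87 ± 0.746 CPM, adjusted p = 0.0197). Lgals3bp, Tapbp and Socs3 were the other genes called lower. The higher level of lymphoid markers in KO liver moves with the genes called higher too, and its part was not tested.

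In testes 4 of the 9 receptors and kinases rose, among the 7 genes called higher, where 9.74% of all genes were called higher. They were Jak1 (57.1 ± 3.33 to 77.9 ± 11.4 CPM, 0.40 ± 0.0920 log2, adjusted p = 0.0132) and Ifnar1 (31.1 ± 1.65 to 41.5 ± 5.49 CPM, 0.33 ± 0.0826, adjusted p = 0.0181), together with Jak2 and Il10rb, and Ifi204, H2-K1 and Adar were the other 3, of which Ifi204 was not called by DESeq2 (adjusted p = 0.0583). Over all pathway genes in testes edgeR called 8 higher and 6 lower, and DESeq2 9 and 7. Of 35 antiviral effectors tested 0 were called higher by limma and 1 lower (Mlkl), with 5 (14.3%) at an unadjusted p under 0.05 where 37.0% of all testes genes had one, while edgeR called 1 higher and 1 lower and DESeq2 2 each way. The RNA sensor regulator Dhx58 fell by 0.61 (49.5 ± 2.63 to 34.3 ± 2.55 CPM, adjusted p = 0.00184) and Nlrc5, the activator of class I genes, fell by 0.62 (11.0 ± 0.743 to 7.71 ± 0.324 CPM, adjusted p = 0.00281), both with an antisense neighbour (Dhx58os by 141 bp, 9330175E14Rik by 78 bp). Rnaseh2c, a subunit of the RNase H2 that clears RNA from DNA, fell by 0.36 (adjusted p = 0.0234) and shares 426 bp with Kat5. The Sertoli and spermatid marker shifts given for testes move with these genes too, and their part was not tested.

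**Figure D4:**
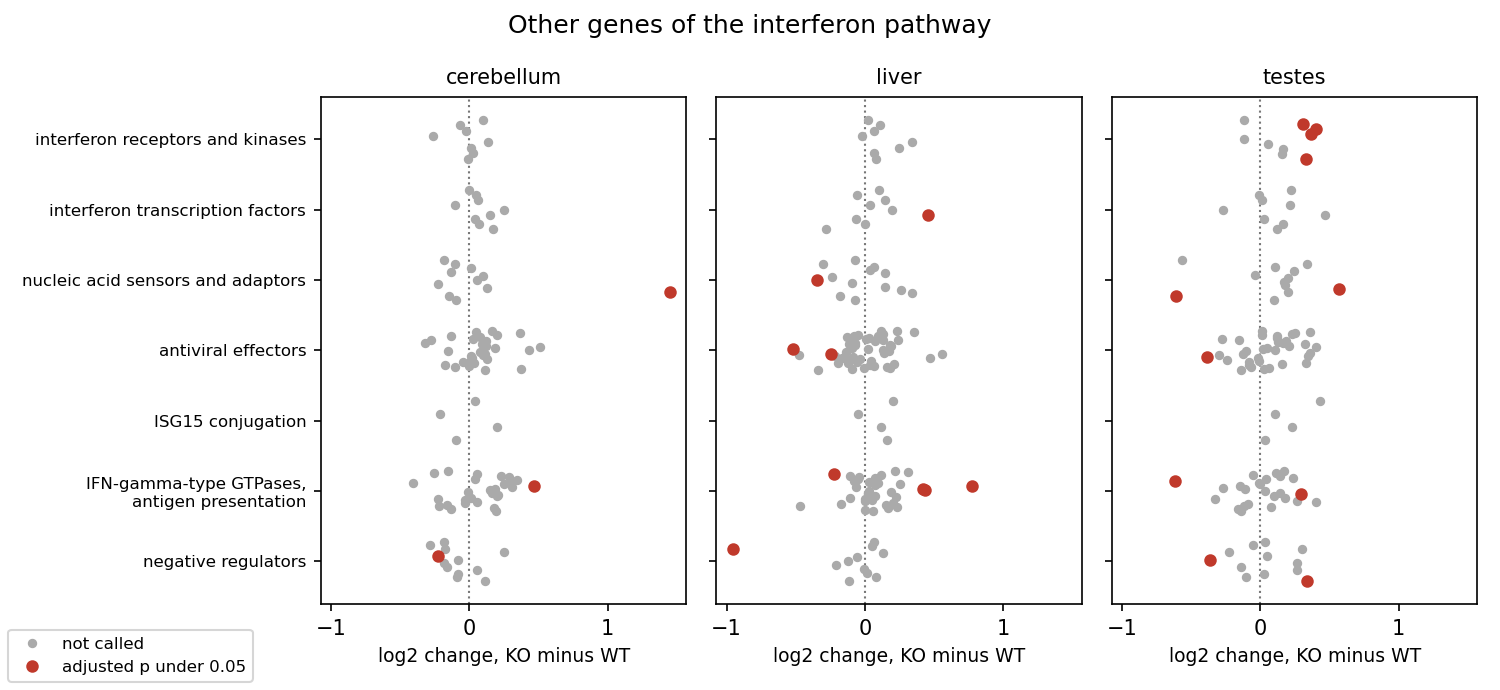
Log2 change (KO minus WT) of each tested gene in the other interferon pathway lists, by tissue, with genes at an adjusted p under 0.05 in red. Called genes lie on both sides of 0, Ifi203 in cerebellum stands farthest out at 1.45, and 4 receptor and kinase genes are red in testes.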

How the data were processed

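Total RNA of 24 libraries was sequenced as paired ends with a stranded kit. The deposited table holds an expected count per gene, estimated by the authors using RSEM after STAR alignment to mm10 (GENCODE M21). Versions and the strand setting were not given in the sources used here, and the values are not normalized. Total counts were 16353797 to 37889615, and no column was left unmatched. Groups came from the labels. CPM is the expected count over a library's total, times 1000000, and CPM per kb divides it by the exonic length.

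The 8 libraries of a tissue were fitted together. Genes that reached 1 CPM in 4 or more of them were quantile normalized with voom and compared with limma 3.58.1 (R 4.3.3), with a Benjamini-Hochberg adjusted p threshold of 0.05 over all genes tested. Fold changes from this fit are on the quantile-normalized scale and differ a little from ratios of CPM. Tissue levels and differences of the KO effect came from one limma-voom fit of 24 libraries with TMM factors from edgeR 4.0.16, on 22629 genes that passed in at least 1 tissue. edgeR and DESeq2 1.42.0 on rounded counts, other filters, sample weights, joint normalization and left-out libraries were the alternatives. The 9 genes and the lists were chosen with earlier results of these data known. All 9 are named in each tissue, then up to 5 pathway genes per tissue with the lowest adjusted p among those called.

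The fits were tested on simulated data. The tissue fits recovered 99%, 96.9% and 97.9% of changed genes in cerebellum, liver and testes, with 2.55%, 2.59% and 4.04% of calls false. The changed genes numbered 193 of 16156, 194 of 12796 and 194 of 19214 tested. Recovery was not broken down by size of change. These rates therefore do not give the power to call changes of the size fitted for the interferon-stimulated genes. This caution also holds for the rates that follow. For the 3 differences of the KO effect, recovery among genes past the filter in both tissues was 53.6% to 64.5%, and among other genes at most 16.3% with most calls false, so only the former are read, and WT levels are compared under the same limit. A fit on genes past the filter in all 3 tissues, added for this reason, recovered 81.4% to 86.3%. Figures were drawn with matplotlib 3.10.9.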

Additional observations from a re-analysis of the deposited data

Results flagged for a closer look

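Among 54 groups of 4 libraries (9 genes in 6 groups), 3 held a library whose distance from the nearest other library passed the 95% critical value of Dixon's test, and chance gives about 1 in 20. Bst2 in WT cerebellum stood at 1.17 CPM in replicate 2, from 29 counts, against 0.510 to 0.606 in the other WT libraries. Isg15 in KO testes stood at 0.0273 CPM in replicate 7, a single count, against 0.138 to 0.160. Usp18 in WT testes stood at 0.869 CPM in replicate 3, from 26 counts, against 0.471 to 0.530. In each case the gene was under the filter in that tissue, so that no call rests on its KO change or tissue difference there. The libraries do enter the mean CPM of Bst2 and Usp18 set between tissues, the estimate of spread behind the difference of Bst2 between testes and liver, and, as a single count, the unfiltered change of Isg15 in testes. No difference of the KO effect between tissues passed the threshold for a gene of the set.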

How the results depend on the processing

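The count of genes called over all genes moved with the fit. In cerebellum it was 1045, against 628 with no filter, 1757 with sample quality weights, 551 in one fit of all 24 libraries and 417 to 2317 with 1 library left out. In liver it was 757, against 1408 with DESeq2, 492 with no filter, 1705 with weights, 3061 in the joint fit and 284 to 795 with 1 library left out. In testes it was 3957, against 6107 with weights and 1711 to 4913 with 1 library left out. Of the 9 genes the liver count was 0, against 2 with DESeq2 and 4 in the joint fit, and the testes count of 1 became 0 to 1 when a library was left out, as given for Oasl2.

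Signs turned where changes were near 0. Irf7 in cerebellum became -0.0033 with weights and ranged from -0.17 to 0.17 with 1 library left out, Ifit1 in liver became 0.026 with edgeR and 0.030 with DESeq2 (-0.22 to 0.099 left out), and Ifi27 in testes became 0.015 with edgeR, 0.012 with DESeq2 and 0.013 with TMM factors (-0.089 to 0.027). With 1 library left out Ifit3 in cerebellum ran from -0.056 to 0.12, Rsad2 in cerebellum from -0.086 to 0.30, Isg15 in liver from -0.17 to 0.055 and Irf7 in testes from -0.28 to 0.078, the last reaching -0.47 with weights, where Bst2 in testes was 0.091. The cause was not tested.

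Between tissues, joint quantile normalization turned the WT difference of testes against cerebellum to -2.55 for Irf7 and -0.16 for Ifi27, and turned testes against liver to -1.16 for Oasl2, so that Irf7 and Oasl2, not called by TMM, were called in the turned direction. Oasl2 testes against liver ran from -0.062 to 0.17 with 1 library number left out. Irf7 testes against cerebellum ran from -0.093 to 0.38. The KO effect of Irf7 in testes minus liver became -0.099 with joint quantile normalization and -0.047 on genes past the filter in all 3 tissues (-0.017 to 0.24 left out), that of Irf7 in testes minus cerebellum ran from -0.36 to 0.10, and that of Ifi27 in testes minus liver from -0.12 to 0.064. Over all genes the differences of the KO effect numbered 378 (145 to 289 left out) for liver minus cerebellum, 1150 (454 to 1298) for testes minus cerebellum and 1150 (421 to 1036) for testes minus liver. On genes past the filter in all 3 tissues they numbered 852 in the first case and 1763 in the third, and the WT tissue contrasts gave 9970, 10003 and 10072 calls, since fewer genes were tested.

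The labels do not say that a number marks a mouse, and same-numbered libraries did not all deviate together (24 pairs, correlations from -0.18 to 0.25, median 0.055), so the numbers were not taken to pair samples. A weak hint of sharing remains, since 10 of 24 were best matched by their own number, KO replicates 6 and 7 in all 3 tissue pairs. Each match was picked among 4 libraries, so chance alone gives about 1 in 4. No WT library of testes was best matched by its own number in liver, and those correlations were all negative. With the replicate block the differences of the KO effect numbered 470, 1371 and 1582, the value for Ifit3 in liver minus cerebellum was 0.41, and no call of the 9 genes changed. Within a tissue no paired analysis was possible because WT and KO libraries share no number. Genes under 1 CPM are limited by depth.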
